A study of Mus musculus with 12 samples.

Results

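Cells sorted by a gate for blood stem and progenitor cells and labelled as lacking miR-146a were compared with wildtype cells of the same gate. The comparison used the 6 libraries of 12 in the series whose deposited genotype was Mir-146 KO/Empty (3 libraries) or Empty (3 libraries), across all genes of the count table. The miR146aKO libraries carry the genotype label miR-146aKO, which says nothing of Runx1, and the wildtype libraries are labelled wildtype for miR-146a and for Runx1. For both genotypes, donor stem and progenitor cells were engrafted in mice, and GFP-positive LSK cells (lineage-negative, Kit-positive, Sca-1-positive) were sorted from the marrow of the secondary recipients. The labels give no age or sex, explain neither the word Empty nor what GFP marks, and do not say whether libraries of a genotype came from separate recipients. The p-values therefore reflect the spread among libraries within a genotype, which may be technical. Unless another fit is named, that spread was estimated over all 12 libraries of the series, including those of the other genotypes. Libraries are named by the identifiers that head their columns, which are A047, A150 and A151 for miR146aKO and A015, A040 and A053 for wildtype.

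MicroRNA-146a is made from a gene on chromosome 11 that NF-kB switches on after Toll-like or interleukin-1 receptor signals. The mature strand pairs through its seed with messenger RNAs of the same signalling chain, above all those of the adaptor TRAF6 and the kinase IRAK1, and so closes a negative feedback loop. In mouse marrow it is known for restraining inflammatory signalling in stem cells and lymphocytes, and mice that lack it develop enlarged lymphoid organs and myeloid disease with age. The LSK gate holds stem cells and multipotent progenitors, and excludes cells that carry surface markers of mature lineages.

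The sequence that was lost sets which messages it could pair with directly, so it is shown here with the sites of the best known targets. RefSeq entries on GRCm38.p6 place the mouse miR-146a hairpin at chr11:43374397-43374461 on the minus strand. Its relative miR-146b lies on chromosome 19, and the labels name a knockout of miR-146a only. The 2 mature 5p strands have the same seed, bases 2 to 8, shown in capitals.
mmu-miR-146a-5p: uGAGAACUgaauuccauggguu
mmu-miR-146b-5p: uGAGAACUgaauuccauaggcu
A message that pairs with that seed holds AGTTCTC (a 7mer-m8 site) or AGTTCTCA (an 8mer site) on its own strand. The sites below were found in the longest annotated 3′ UTR (GENCODE vM21, GRCm38) of 3 members of the receptor chain, with the site in capitals. Traf6 held 4 8mer sites, the first at chr2:101697945-101697966 and the last at chr2:101701345-101701366 on the plus strand. Irak1 held 2, at chrX:74015393-74015414 and chrX:74015377-74015398 on the minus strand. Irak2 held a 7mer-m8 site at chr6:113694118-113694139 and an 8mer site at chr6:113694252-113694273 on the plus strand.
Traf6 site 1: ccgctctggtgttgAGTTCTCA
Traf6 site 4: gactttgctactgcAGTTCTCA
Irak1 site 1: gactcagaggtcaaAGTTCTCA
Irak1 site 2: ttctcatgcttggaAGTTCTCA
Irak2 site 1: gcccccaaacctcttAGTTCTC
Irak2 site 2: ccggtgtctccgcaAGTTCTCA

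Several measurements that are not the genotype also separated or mixed the libraries. Total counts were 3540043 to 4353971 in miR146aKO and 4387524 to 6642886 in wildtype libraries, with a share for ribosomal RNA (Rn45s) of 6.45% to 15.1% in miR146aKO and 3.91% to 12.96% in wildtype. Mir146 itself had 0 counts in all 6 libraries, as did Mir146b, so these counts do not check the knockout label. Elsewhere in the series, A031, a library labelled for loss of miR-146a with mutant Runx1, had 14 Mir146 counts. The other libraries had 0, and the source of the 14 counts was not tested. The Y-linked genes Ddx3y, Eif2s3y, Kdm5d and Uty averaged 60.4, 39.5 and 24.8 CPM (counts scaled to a common library size) in miR146aKO A047, A150 and A151, against 0.137, 7.99 and 1.89 CPM in wildtype A015, A040 and A053. Xist, the RNA that silences an X chromosome in females, had 18.6, 16.4 and 464 CPM in the miR146aKO libraries, against 4452, 2903 and 704 CPM in the wildtype libraries. The miR146aKO libraries thus held mostly male and the wildtype libraries mostly female transcripts, with both kinds in A151, A040 and A053. With the Y-linked level as a covariate, edgeR called 0 genes, and 1209 had an unadjusted p under 0.05. The 23 genes called without it then had adjusted p of 0.0516 to 0.334, while their log2 fold changes were 0.815 to 1.33 times the reported ones, all in the same direction.

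**Figure D1:**
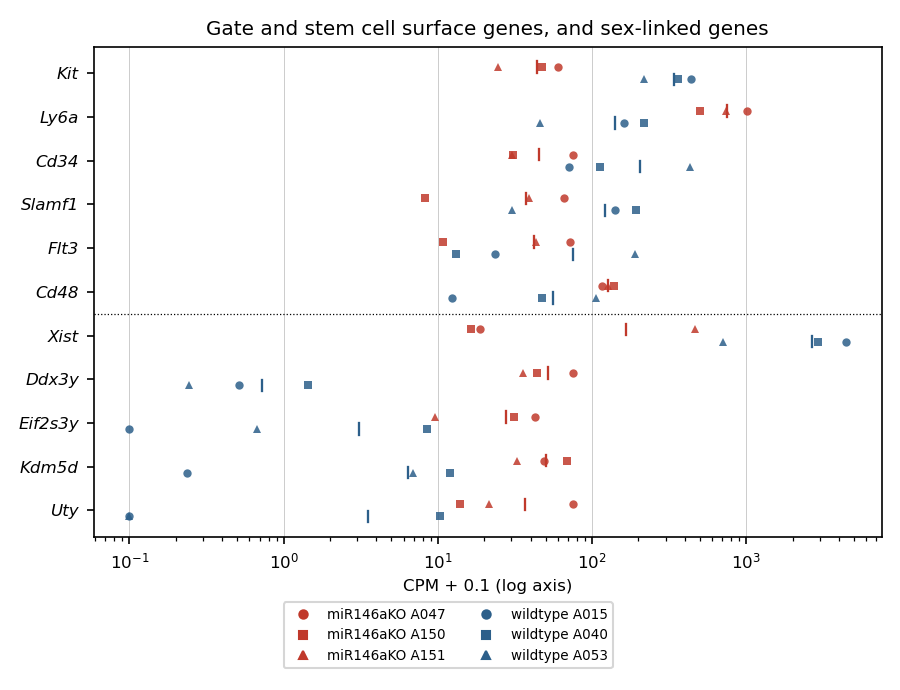
Level of surface genes of the gate and of stem cells (above the dotted line) and of sex-linked genes (below it), in CPM plus 0.1 on a log axis, with one mark per library and a bar at each genotype mean. The 3 miR146aKO libraries sit below the 3 wildtype libraries for Kit and Xist, and above them for Ly6a and the 4 Y-linked genes.

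The miR146aKO libraries also differed among themselves. A150 and A151 had a Spearman correlation of counts of 0.915, while A047 had 0.860 and 0.855 with them and 0.845 to 0.854 with the wildtype libraries. T cell genes averaged 7.34 on the log2 CPM scale in A047, against 3.47 and 2.45 in A150 and A151 and 1.33 to 1.69 in wildtype. Resident macrophage genes averaged 3.40 in A047 and 9.02 and 8.59 in A150 and A151, against 1.25 to 3.75 in wildtype. Stroma and endothelium genes showed the same split, with 0.783 in A047 and 4.27 and 4.49 in A150 and A151, against 0.491 to 0.960 in wildtype. In such bulk libraries, fewer cells of a type and less RNA of that type per cell cannot be told apart. Without A047, edgeR called 135 genes, and without A150 or A151 it called 3 and 2.

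In the comparison of all genes, 23 passed a Benjamini-Hochberg adjusted p under 0.05 in edgeR's quasi-likelihood test, of 12744 tested (0.18%). In miR146aKO 19 rose (0.149%) and 4 fell (0.0314%). Those that rose include surface receptors, adaptors and enzymes of lymphocytes and other leukocytes beside genes of other roles, and for all 23 the 3 miR146aKO libraries did not overlap the 3 wildtype libraries. At an unadjusted p under 0.05 there were 1123 genes on the higher (8.81%) and 903 on the lower side (7.09%). Complete separation of the libraries was common in the table as a whole, with 1358 tested genes above (10.7%) and 1307 below (10.3%) in all miR146aKO libraries. In a fit of the 6 libraries alone, all 23 were among 158 called genes, 126 higher (1.1%) and 32 lower (0.28%) of 11418 tested. Of the 23, only Cd2 passed after leaving out each of the 6 libraries in turn.

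**Figure D2:**
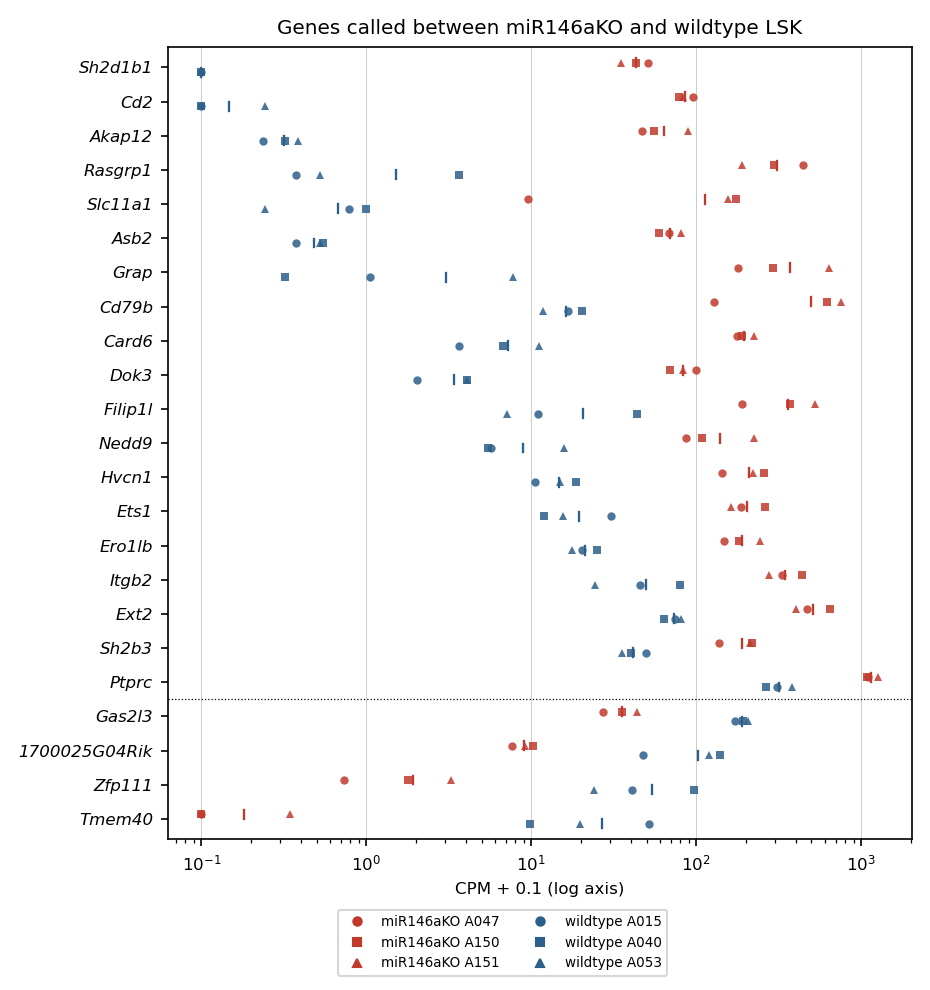
Level of the 23 called genes in CPM plus 0.1 on a log axis, with one mark per library and a bar at each genotype mean. The 19 genes above the dotted line were higher in every miR146aKO library than in any wildtype library, and the 4 below it were lower.

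Several genes that rose act at the leukocyte surface. Cd2, the called gene of smallest p and an adhesion receptor of T, NK and B lineage cells on chromosome 3 (101275899 to 101287939), had 95.5, 78.4 and 82.8 CPM in miR146aKO A047, A150 and A151, against 0, 0 and 0.142 CPM in wildtype A015, A040 and A053. The miR146aKO values lay close together and the wildtype values at or near 0. With 966 counts against 1, the ratio was 1595 (95% counting interval 286 to 63080), and the adjusted p was 0.00344 by edgeR. Cd79b (chromosome 11, 106311341 to 106314762), which signals for the B cell receptor, had 129, 616 and 751 CPM in miR146aKO, against 16.6, 20.2 and 11.7 CPM in wildtype. A047 was the lowest of the miR146aKO libraries, yet well above wildtype, and the log2 fold change was 4.95 ± 0.78 (SE, edgeR adjusted p = 0.0322). Ptprc, which encodes CD45, the phosphatase that primes antigen receptor signalling on all white blood cells, had 1105, 1085 and 1268 CPM in miR146aKO, against 308, 264 and 380.2 CPM in wildtype. It was the most abundant called gene, and its rise of 1.86 ± 0.30 on the log2 scale was the smallest among the 19. Itgb2, the shared beta chain of leukocyte integrins, had 330.3, 436 and 277 CPM in miR146aKO, against 45.4, 79.7 and 24.4 CPM in wildtype.

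Adaptors and enzymes that act just inside the membrane rose with them. Grap, an adaptor that joins activated lymphocyte receptors to the Ras pathway, had 179.5, 290.1 and 639 CPM in miR146aKO, against 0.958, 0.222 and 7.69 CPM in wildtype. Rasgrp1, an exchange factor that switches Ras on below the T and B cell receptors, had 446, 297 and 189 CPM in miR146aKO, against 0.274, 3.55 and 0.427 CPM in wildtype. The order within miR146aKO ran opposite ways for the pair, with A047 lowest for Grap and highest for Rasgrp1, and neither overlapped wildtype. Hvcn1, a proton channel that sustains B cell receptor signalling, had 143, 259 and 222 CPM in miR146aKO, against 10.4, 18.6 and 14.8 CPM in wildtype, a log2 fold change of 3.83 ± 0.47 (SE, edgeR adjusted p = 0.00634). Dok3, an adaptor that restrains B cell receptor and myeloid signalling, had 98.9, 69.4 and 82.5 CPM in miR146aKO, against 1.92, 3.997 and 3.99 CPM in wildtype, with 4.66 ± 0.64 (adjusted p = 0.0166). Sh2d1b1 encodes an adaptor of SLAM family receptors in NK and myeloid cells. Its level was 50.9, 42.8 and 34.8 CPM in miR146aKO, against 0 counts in each wildtype library, at least 265-fold higher if the wildtype group is given a floor of 3 counts in all. Sh2b3, the adaptor LNK that dampens cytokine receptor signals in stem cells and lymphocytes, had 137, 217 and 212 CPM in miR146aKO, against 49.3, 40.2 and 35.2 CPM in wildtype. Ets1 (chromosome 9, 32636221 to 32757820) was the called transcription factor, one that lymphocytes use throughout their development, with 186, 261 and 163 CPM in miR146aKO, against 30.5, 11.8 and 15.5 CPM in wildtype.

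The other 8 genes that rose have more varied roles. Nedd9, a docking protein of integrin signalling and lymphocyte migration, had 86.6, 108 and 225 CPM in miR146aKO, against 5.61, 5.33 and 15.7 CPM in wildtype. Slc11a1, a metal transporter of phagosomes in macrophages, had 9.48, 174 and 155 CPM in miR146aKO, against 0.684, 0.888 and 0.142 CPM in wildtype. It was the called gene for which A047 stood farthest below A150 and A151, the split already seen for macrophage genes as a whole. Ero1lb, an oxidase that helps secretory proteins fold, had 147, 181 and 244 CPM in miR146aKO, against 20.1, 25.1 and 17.7 CPM in wildtype. Ext2, an enzyme that builds heparan sulphate chains, had 472, 649 and 405 CPM in miR146aKO, against 73.9, 63.7 and 81.3 CPM in wildtype. Card6, a caspase recruitment domain protein, averaged 196 ± 24.4 CPM in miR146aKO and 7.11 ± 3.79 in wildtype (SD, n = 3 each). Asb2, part of a ubiquitin ligase, averaged 69.2 ± 10.8 CPM in miR146aKO and 0.382 ± 0.0939 CPM in wildtype. Akap12, a scaffold for protein kinase A, averaged 64.0 ± 22.3 CPM in miR146aKO and 0.214 ± 0.0743 CPM in wildtype. Filip1l had 190.0, 369.5 and 522 CPM in miR146aKO, against 10.8, 43.5 and 6.98 CPM in wildtype. Hvcn1, Ext2, Grap, Sh2b3 and Filip1l each overlap a gene on the other strand (Tctn1, Alx4, Slc5a10, Atxn2 and Cmss1, in that order), and because the libraries do not keep strand, reads in the shared bases cannot be told apart. The shared stretch was 4450, 20312, 4 and 1006 bases for the first 4 genes. For Filip1l it was 220034 bases, all of its annotated span.

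The 4 genes that fell have varied roles. Tmem40 (chromosome 6, 115729131 to 115762410), known from megakaryocytes and platelets, had 0, 0 and 0.243 CPM in miR146aKO, against 51.3, 9.77 and 19.5 CPM in wildtype, or 1 count against 556. Zfp111, a zinc finger protein, had 0.632, 1.69 and 3.16 CPM in miR146aKO, against 40.5, 97.0 and 23.9 CPM in wildtype. Gas2l3, which links actin and microtubules during cell division, had 27.2, 35.3 and 43.8 CPM in miR146aKO, against 171, 191 and 206 CPM in wildtype. Both genotypes were tight for Gas2l3, and its log2 fold change was -2.42 ± 0.42 (SE, edgeR adjusted p = 0.0414). The gene 1700025G04Rik had 7.59, 10.2 and 9.01 CPM in miR146aKO, against 47.8, 139.5 and 119 CPM in wildtype.

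Just outside the threshold stood 15 further named genes with adjusted p between 0.0525 and 0.057 by edgeR. None of them overlapped between genotypes, which their choice by smallest p favours. Of all tested genes, 10.7% lay above and 10.3% below without overlap. On the higher side were Gimap3, a GTPase of lymphocyte survival, with 419, 300.5 and 214 CPM in miR146aKO, against 6.98, 2.22 and 3.70 CPM in wildtype, and Cd22, an inhibitory co-receptor of B cells, with 57.2, 439 and 486 CPM, against 0.410, 2.00 and 0 CPM. The macrophage lectin Siglec1, the chemokine Ccl6, the B cell and plasmacytoid dendritic cell factor Spib and the receptor Tlr1 were also on that side, each with A047 lowest of the miR146aKO libraries. The Y-linked gene Ddx3y was among the 15 too, with 75.2, 44.0 and 35.8 CPM in miR146aKO, against 0.410, 1.33 and 0.142 CPM in wildtype. Lilrb4a and Man2a1 completed the higher side. On the lower side were the mitotic kinase Pbk (6.32, 7.99 and 10.7 CPM in miR146aKO, against 30.9, 93.9 and 129.7 CPM in wildtype), Ctdspl, Cdca7, Cntln, Cbx5 and Treml2.

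**Figure D3:**
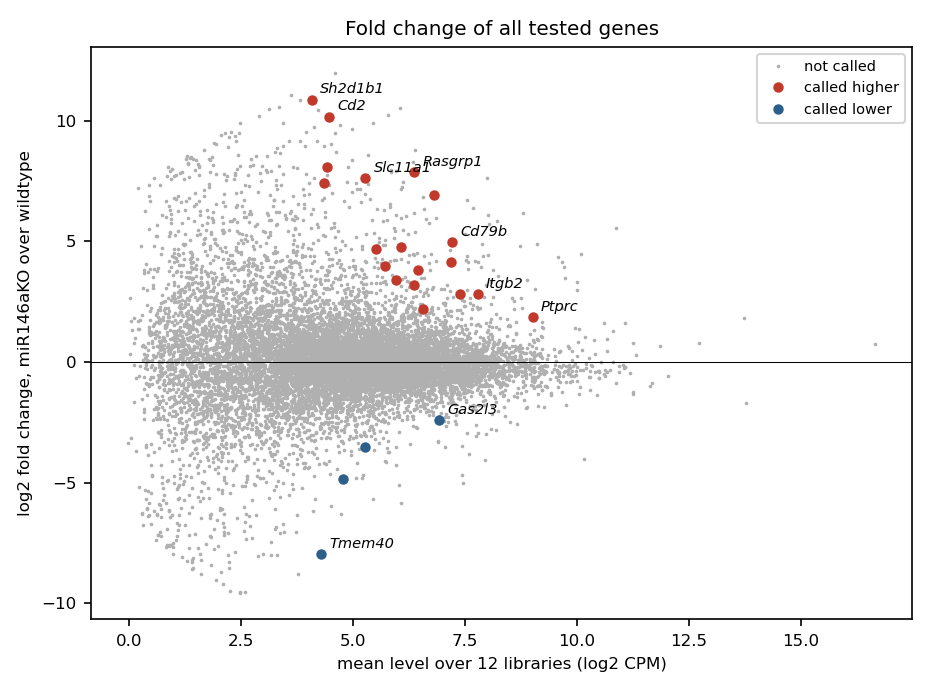
Log2 fold change of miR146aKO over wildtype against mean level over the 12 libraries of the fit, for 12744 tested genes, with called genes enlarged and some of them named. Uncalled genes with folds as large as those of called genes lie on both sides, and 19 of the 23 called genes are above the zero line.

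The wider lists, which can share genes, were written with earlier results of these data known, so their counts are descriptions and not separate support. They were read by how many of their tested members lay on each side, next to all tested genes. Of all tested genes, 49.9% lay on the higher side, with a median log2 fold change of -0.003. Early B cell receptor signalling held 28 tested genes, 26 on the higher side, with a median of 2.62. Of these, 5 were called (Hvcn1, Dok3, Cd79b, Grap and Rasgrp1), and 16 were above wildtype in all libraries, against 0.149% called higher and 10.7% above among all tested genes. Blk, Cd79a, Cd22 and Prkcb, named here after their values were seen, were among the further members called in the 6-library fit, which called none lower. Prkcb, the kinase that couples the receptor to NF-kB, had 245, 1008 and 989.7 CPM in miR146aKO, against 22.3, 60.8 and 77.3 CPM in wildtype (adjusted p = 0.0859 in edgeR's 12-library fit). Syk, the kinase that starts the cascade, had 197, 403 and 455 CPM in miR146aKO, against 67.5, 76.2 and 113 CPM in wildtype (adjusted p = 0.0609). Dapp1 was on the other side, with 105, 167 and 150.2 CPM in miR146aKO, against 757, 174 and 419 CPM in wildtype.

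Genes that define B cells were mostly on the higher side, and uneven among the miR146aKO libraries. B lineage transcription factors had 15 of 16 tested genes on the higher side (median 3.31, 1 called) and B lineage surface and assembly genes 19 of 20 (median 3.56, 1 called). Among all tested genes edgeR called 0.149% higher. For these 2 lists limma-voom called 2 and 3 genes, and DESeq2 5 and 9. Pax5, the factor that commits cells to the B lineage, had 0.316, 134 and 139.7 CPM in miR146aKO, against 0 CPM in all wildtype libraries, so that A047 was close to wildtype. Ikzf3, a factor of later B cells, had 613, 1171 and 1055 CPM in miR146aKO, against 0.274, 14.4 and 0.142 CPM in wildtype (edgeR adjusted p = 0.114). Genes that present antigen on MHC class II lay on the higher side in 11 of 11 cases (median 4.14), and 8 were above wildtype in all libraries, against 10.7% of all tested genes. EdgeR called 0 of them and had 10 with an unadjusted p under 0.05, while limma-voom called 2 and DESeq2 7. H2-Ab1, a class II chain, had 649, 4241 and 3268 CPM in miR146aKO, against 235, 81.9 and 146 CPM in wildtype (adjusted p = 0.0609). The class I list had 9 of 13 on the higher side and a median of 0.30.

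Of 18 tested plasma cell genes, 17 lay on the higher side (median 2.50), and 15 of 18 were above wildtype in all libraries, against 10.7% of all tested genes. Ero1lb was the called member in edgeR, which called 0.149% of all tested genes higher, while limma-voom called 3 of the list and DESeq2 8. Jchain, which links secreted antibodies, had 10500, 2924 and 7649 CPM in miR146aKO, against 7.66, 445 and 3.56 CPM in wildtype. The wildtype library A040 stood far above the other two, and the fit gave 5.53 ± 2.02 with an adjusted p of 0.201 by edgeR. Xbp1, the factor that expands the secretory pathway, had 1170, 325 and 456 CPM in miR146aKO, against 38.9, 230.0 and 33.7 CPM in wildtype, again with A040 the highest wildtype library. Irf4 had 1009, 483 and 566 CPM in miR146aKO, against 0.821, 109 and 5.55 CPM in wildtype.

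Some lists of other mature cells followed the genotype and others single libraries. Dendritic cell genes averaged 5.11, 5.16 and 5.54 on the log2 CPM scale in miR146aKO, against 2.55, 2.63 and 3.15 in wildtype, with 10 of 13 tested genes on the higher side (median 1.69) and 6 above wildtype in all libraries, against 10.7% of all tested genes. EdgeR and limma-voom called 0 of them higher and DESeq2 3. Spib, Irf8 and Ly6d of this list also stand in the B lineage lists, while Zbtb46, Batf3, Cd209a and Siglech were too low to test. Monocyte genes averaged 4.94, 6.92 and 6.06 in miR146aKO, against 2.81, 4.76 and 3.45 in wildtype, so that wildtype A040 came close to A047. The levels of Fc receptors and their ITAM adaptors (3.52, 6.02 and 5.61 in miR146aKO, against 2.21, 3.33 and 2.54 in wildtype) and of lysosomal proteases (6.68, 8.20 and 7.97, against 5.47, 5.65 and 4.36) did not overlap either. The T cell list had 13 of 15 tested genes on the higher side with a median of 4.70, and 0.88 without A047. The T cell receptor chain genes Cd3e and Cd3g were high in that library alone. Cd3e had 644, 8.71 and 2.68 CPM in miR146aKO, against 0.137, 0.222 and 0.142 CPM in wildtype, and Cd3g had 189.6, 1.69 and 0 CPM, against 0.137, 0 and 0 CPM. Cd2 and Cd4 did not share that pattern, and with Cd28 they were the members of the list called higher in the 6-library fit. Cd4, a co-receptor of helper T cells that some dendritic cells also carry, had 226, 297 and 158 CPM in miR146aKO, against 0.274, 2.44 and 0.285 CPM in wildtype (edgeR adjusted p = 0.0714). Resident macrophage genes lay on the higher side in 21 of 21 cases (median 5.44), and 10 were above wildtype in all libraries, against 10.7% of all tested genes. EdgeR called 1 of them, against 0.149% called higher among all tested genes, while limma-voom called 0 and DESeq2 17. Adgre1, the macrophage antigen F4/80, had 11.1, 285 and 219.8 CPM in miR146aKO, against 0.274, 1.55 and 4.70 CPM in wildtype, and Vcam1, an adhesion protein of marrow macrophages and stroma, 30.3, 2058 and 1814 CPM, against 3.69, 128 and 2.42 CPM. The stromal chemokine Cxcl12 had 0.632, 158 and 346 CPM in miR146aKO, against 0.684, 0.222 and 0.570 CPM in wildtype. Erythroid genes lay on the higher side in 15 of 19 cases, and 3 were above wildtype in all libraries, a share near the 10.7% of all tested genes. The labelled gate is lineage-negative, and the part of these markers' cells in the changes of the called genes was not tested.

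**Figure D4:**
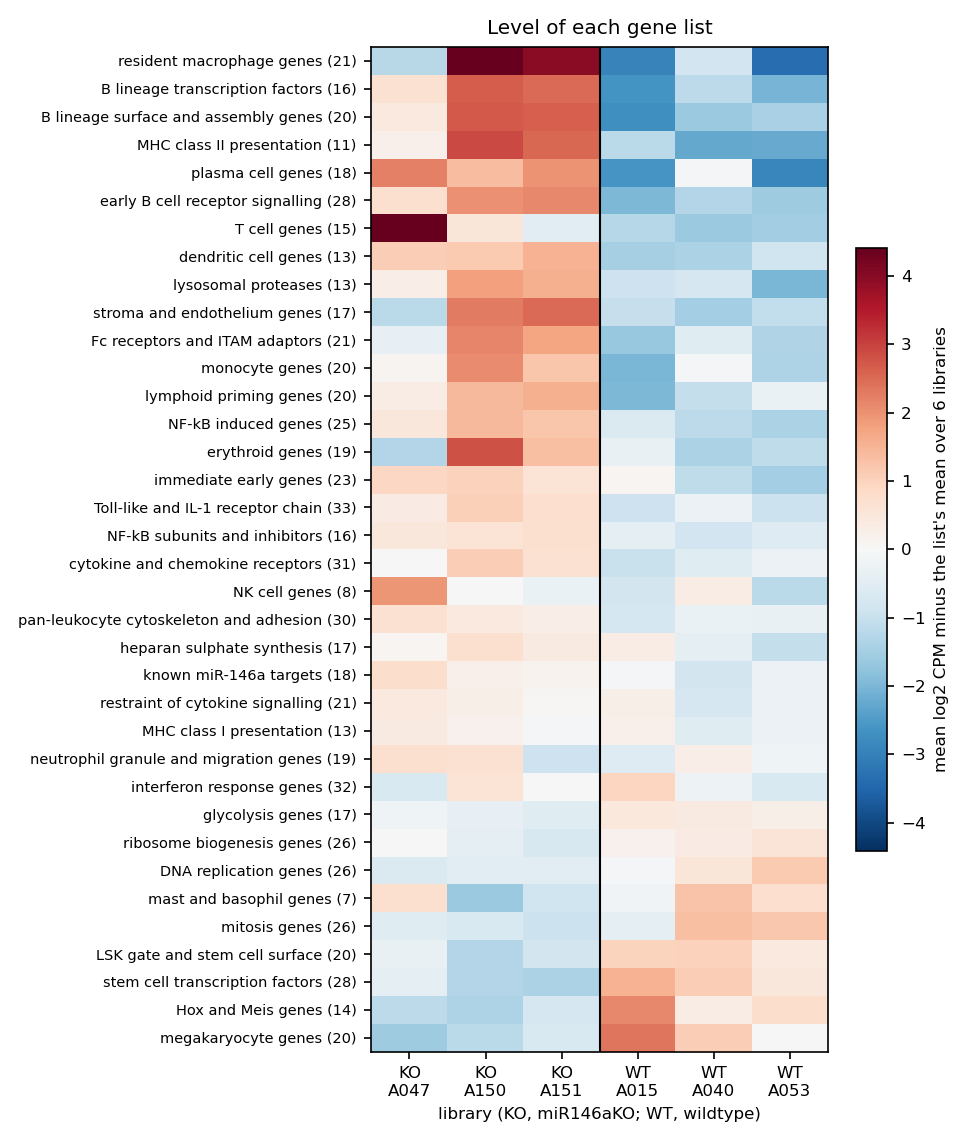
Mean log2 CPM of each list in each library minus the list's mean over the 6 libraries, with red above and blue below that mean and the number of tested genes in brackets, ordered by the difference between genotypes. B cell, plasma cell and class II lists are red in all 3 miR146aKO libraries, whereas resident macrophage and stroma lists are red in A150 and A151 only and the T cell list mainly in A047.

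The genes of the gate itself lay on opposite sides. Kit, the stem cell factor receptor that sorts the cells, had 59.7, 47.7 and 24.6 CPM in miR146aKO, against 436, 363 and 218 CPM in wildtype, with a log2 fold change of -2.95 ± 0.68 (SE, adjusted p = 0.0725 by edgeR; called in the 6-library fit). Ly6a, which encodes Sca-1, had 1019, 505 and 742 CPM in miR146aKO, against 162, 216 and 46.0 CPM in wildtype (2.42 ± 0.91, adjusted p = 0.218). Both genes were thus detected in every library, on opposite sides and without overlap between genotypes. Of 20 tested gate and stem cell surface genes, 17 lay on the lower side, with a median of -1.94. Adgrg1, an adhesion receptor of stem cells, had 229.5, 126 and 86.9 CPM in miR146aKO, against 1324, 602 and 715 CPM in wildtype, and was called in the 6-library fit but not in the 12-library fit. Of the markers that split the gate, Cd48 had 115, 139 and 128 CPM in miR146aKO, against 12.3, 47.5 and 107 CPM in wildtype, without overlap (edgeR adjusted p = 0.373). The others overlapped between genotypes. Cd34 had 74.9, 30.5 and 30.2 CPM in miR146aKO, against 71.2, 112 and 432 CPM in wildtype, and Slamf1 and Flt3 were mixed too.

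Transcription factors of stem cells lay mostly on the lower side. Of 28 tested, 23 did so and 17 were below wildtype in all libraries, against 10.3% of all tested genes, with a median of -1.88. EdgeR called 0 of them and had 13 with an unadjusted p under 0.05, limma-voom called 0 and DESeq2 4. Erg had 233, 121 and 299 CPM in miR146aKO, against 904, 337 and 1106 CPM in wildtype, and Etv6 349, 152 and 98.1 CPM, against 557, 461 and 584 CPM (edgeR adjusted p = 0.26 and 0.147). Ndn, a growth suppressor of quiescent stem cells, had 0 counts in each miR146aKO library, against 26.3, 1.78 and 7.69 CPM in wildtype. Runx1, which the other genotypes of the series alter, had 168, 149.8 and 98.3 CPM in miR146aKO, against 241, 359.5 and 237 CPM in wildtype (adjusted p = 0.288). Hox and Meis genes lay on the lower side in 13 of 14 cases (median -2.58), with Hoxa9 at 3.16, 5.08 and 0 CPM in miR146aKO, against 21.8, 16.0 and 51.1 CPM in wildtype. Their levels were low, with list means of 1.11, 0.902 and 1.53 log2 CPM in miR146aKO, against 4.38, 2.58 and 3.03 in wildtype. EdgeR, limma-voom and DESeq2 called 0 of them, and edgeR had 2 lower with an unadjusted p under 0.05. Of the 14, 5 were below wildtype in all libraries, against 10.3% of all tested genes.

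Megakaryocyte genes, which primed stem cells also express, lay on the lower side in 17 of 20 cases, with a median of -2.81, and -2.88 when members with at most 3 counts in a genotype were set at their bound. Tmem40 was the called member in edgeR, which called 0.0314% of all tested genes lower, while limma-voom called 0 of the list and DESeq2 6. Nfe2, the factor of platelet release, had 7.90, 28.8 and 24.3 CPM in miR146aKO, against 212, 55.7 and 127 CPM in wildtype (edgeR adjusted p = 0.0685). Vwf, which marks platelet-biased stem cells, had 7.59, 1.45 and 1.95 CPM in miR146aKO, against 410.2, 188 and 18.9 CPM in wildtype, with A053 the lowest wildtype library.

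Genes of cell division lay on the lower side. All 26 tested mitosis genes lay on the lower side (median -1.51), 11 of them below wildtype in all libraries and 1, Gas2l3, called, against 10.3% below and 0.0314% called lower among all tested genes. Cenpf, a kinetochore protein, had 59.7, 55.2 and 49.7 CPM in miR146aKO, against 98.5, 252 and 282 CPM in wildtype (edgeR adjusted p = 0.0725). Wildtype A015 stood nearer to miR146aKO than A040 and A053 did, and Mki67 overlapped on its account, with 889, 1234 and 1199 CPM in miR146aKO, against 823, 3375 and 4107 CPM in wildtype. Against A015 as the single wildtype library the median of the mitosis list was -0.32, with that library assumed to vary like the other genotypes. DNA replication genes lay on the lower side in 26 of 26 cases (median -1.05). EdgeR and limma-voom called 0 of them and DESeq2 3, and edgeR had 9 with an unadjusted p under 0.05. Pcna, the replication clamp, had 173, 174 and 136 CPM in miR146aKO, against 222, 419.9 and 491 CPM in wildtype. Ribosome biogenesis genes followed, with 22 of 26 on the lower side and a median of -0.74, among them Dkc1 with 81.9, 105 and 69.1 CPM in miR146aKO, against 237, 206 and 444 CPM in wildtype.

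The targets through which miR-146a is known to restrain innate signalling were not called. Traf6 had 119, 97.0 and 66.9 CPM in miR146aKO, against 83.7, 69.7 and 151.4 CPM in wildtype, and Irak1 173, 90.2 and 144 CPM, against 101, 219.6 and 132 CPM. Both overlapped fully, with log2 fold changes of -0.11 ± 0.44 and -0.15 ± 0.40 (SE) that turned positive when single libraries were left out. Irak2, a kinase that prolongs the same signal, had 51.5, 33.4 and 47.5 CPM in miR146aKO, against 5.88, 2.67 and 7.83 CPM in wildtype (3.00 ± 0.86, adjusted p = 0.126 by edgeR). Relb, an NF-kB subunit and another described target, had 59.4, 22.3 and 15.6 CPM in miR146aKO, against 4.79, 2.67 and 1.42 CPM in wildtype (adjusted p = 0.122). These 2 genes, Tlr4 and Notch2 were among the 5 of 18 tested that were above wildtype in all libraries, against 10.7% of all tested genes, and Elavl1 was below in all. Of the 18, 9 held a seed site in the longest 3′ UTR, Irak2 and Elavl1 among them. No such site was found for Relb, Tlr4 or Notch2. Of 18 tested genes described as targets, 11 lay on the higher side, with a median of 0.31, and with the Y-linked covariate the median was -0.23. EdgeR and limma-voom called 0 of them and DESeq2 3, and edgeR had 4 higher and 1 lower with an unadjusted p under 0.05.

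Downstream, NF-kB subunits and inhibitors had 14 of 16 tested genes on the higher side (median 1.25, 7 above wildtype in all libraries, against 10.7% of all tested genes). Nfkbia, the inhibitor that NF-kB induces first, had 136, 123 and 194 CPM in miR146aKO, against 36.4, 24.4 and 50.1 CPM in wildtype (adjusted p = 0.105). Nfkb1 had 71.4, 136 and 127 CPM in miR146aKO, against 104, 136 and 112 CPM in wildtype. Of 25 tested NF-kB induced genes, 23 lay on the higher side (median 1.94). For both lists edgeR and limma-voom called 0 genes, edgeR had 6 and 10 higher with an unadjusted p under 0.05, and DESeq2 called 2 and 8. Cd83 had 10.8, 71.1 and 71.3 CPM in miR146aKO, against 0.274, 1.11 and 0.285 CPM in wildtype, while the chemokine Ccl5 was high in A047 only, with 776, 7.26 and 6.57 CPM in miR146aKO, against 2.05, 2.44 and 0 CPM in wildtype. Mature B cells, macrophages and T cells also express such genes, and the part of their markers in these values was not tested. The Toll-like and IL-1 receptor chain had 27 of 33 on the higher side (median 0.87), of which edgeR called 0, limma-voom 1 and DESeq2 7 higher and 1 lower, with 9 higher and 1 lower at an unadjusted p under 0.05 in edgeR. Tlr9, a sensor of DNA in B and dendritic cells, had 50.9, 128 and 53.8 CPM in miR146aKO, against 0.958, 0.222 and 0.142 CPM in wildtype (adjusted p = 0.0685), whereas Il1r1, the interleukin-1 receptor, was on the lower side with 12.6, 5.81 and 4.14 CPM, against 36.0, 66.4 and 87.8 CPM.

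Immediate early genes, which cells switch on within minutes of a stimulus, had 20 of 23 tested members on the higher side (median 1.36), and 12 were above wildtype in all libraries, against 10.7% of all tested genes. EdgeR and limma-voom called 0 of them and DESeq2 4, and edgeR had 11 higher with an unadjusted p under 0.05. Btg2 had 248, 109 and 101 CPM in miR146aKO, against 28.3, 13.6 and 4.27 CPM in wildtype (edgeR adjusted p = 0.0779), and Egr3 19.9, 64.6 and 28.5 CPM, against 0.958, 0 and 0.285 CPM. Interferon response genes were split, with 15 of 32 on the higher side and a median of -0.06. Within that list Irf7 had 257, 39.7 and 27.5 CPM in miR146aKO, against 15.3, 2.22 and 0.570 CPM in wildtype, and Ifitm3, which stem cells express without infection, 208, 146 and 148 CPM, against 944, 582 and 511 CPM.

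Whether messages with a seed site moved as a class was examined across all 11698 tested genes with an annotated 3′ UTR. The 544 genes with an 8mer site had a median log2 fold change of -0.06, with 47.2% on the higher side, and the 949 genes with only a 7mer-m8 site had -0.04, with 48.4%. The 10205 genes without a site had a median of 0.002, with 50.1% on the higher side. Over all lengths, genes with a site thus lay no higher than genes without one. Their 3′ UTRs were longer, with a median of 2670 bases, against 1033 bases for genes without a site. In the tertile of longest 3′ UTRs the medians were -0.07 for 1026 genes with a site and 0.001 for 2874 without. In the middle tertile they were -0.002 for 354 and 0.02 for 3545 genes, and in the shortest tertile the order was the other way, with 0.08 for 113 genes with a site and -0.02 for 3786 without. In the longest 3′ UTR, 4 of the 23 called genes held a site, against 12.8% of tested genes with a 3′ UTR. Of those 4, 2 rose. Across all protein-coding transcripts, genes with a site included 3 called higher and 2 called lower. The 4 with a site in the longest 3′ UTR are shown.
Cd79b site, chr11:106311598-106311619, minus strand: tgacatggagtaaggAGTTCTC
Ets1 site, chr9:32755521-32755542, plus strand: caaactaacattctcAGTTCTC
Zfp111 site, chr7:24194721-24194742, minus strand: cagtctctgtaaaccAGTTCTC
1700025G04Rik site, chr1:151885510-151885531, minus strand: ccccagcctggctcAGTTCTCA
Cd79b and Ets1 rose, whereas Zfp111 and 1700025G04Rik fell. A match to these letters is a description and not a shown binding site.

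**Figure D5:**
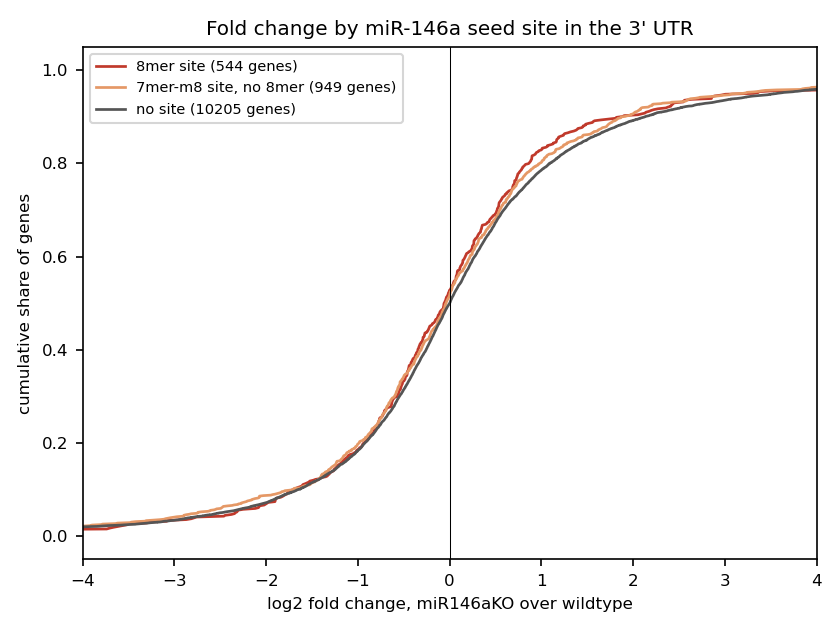
Cumulative share of tested genes by log2 fold change of miR146aKO over wildtype, for genes with an 8mer site, with only a 7mer-m8 site and with no site for the miR-146a seed in the longest 3′ UTR. The 3 curves run together, and the curves of genes with a site do not lie to the right of the curve of genes without one.

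The neighbourhood of the deleted gene was measured through 10 further genes of the table within 1000000 bases, of which 4 were tested. EdgeR and limma-voom called 0 and DESeq2 1, and in edgeR 1 had an unadjusted p under 0.05. That one was Pttg1 (chromosome 11, 43420250 to 43426251), which encodes securin, the inhibitor of sister chromatid separation, and ends 45789 bases from the hairpin. It had 116, 113 and 139 CPM in miR146aKO, against 29.4, 16.6 and 18.9 CPM in wildtype, with a log2 fold change of 2.50 ± 0.63 (SE, edgeR adjusted p = 0.0954). Pttg1 was chosen after its values were seen. Pttg1 is not in the mitosis list, whose 26 tested genes all lay on the lower side. The cause of the difference in Pttg1 was not tested. The other 3 neighbours had log2 fold changes from -0.76 to 0.31.

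By the interaction term of the same edgeR fit, the effect of miR-146a loss differed with mutant Runx1 for 3 of 12744 tested genes. These were Cd2, Dok3 and Hvcn1, all 3 called above, each with its highest mean of the 4 genotypes in miR146aKO. The term subtracts the same difference between miR146aKO and wildtype by which they were called, so it is not separate support. Their values in all 4 genotypes are given among the closing results.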

How the data were processed

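RNA of sorted cells was amplified with NuGEN's Ovation v2 kit and made into Nextera XT libraries, per the labels' protocols, so reads do not keep strand. The deposited table holds raw read counts per gene symbol. Per the submitters' processing notes, the authors used FastQC 0.11.2, HISAT2 2.0.4, featureCounts 1.5.2 and mm10. How strand and multi-mapping reads were set in counting, and with which annotation, is not given in the sources used here. Its columns carry a genotype and no replicate number.

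The counts were tested as deposited with edgeR 4.0.16 in R 4.3.3 (quasi-likelihood, TMM scaling, default low-count filter) in 1 fit of the 12 libraries of 4 genotypes, with the contrast miR146aKO minus wildtype. The threshold was a Benjamini-Hochberg adjusted p below 0.05 over 12744 tested genes, of 24421 symbols (5211 had no count). CPM uses TMM-scaled library sizes. List levels are means of log2 CPM (prior count 2). A list is described by its counts and median, with no set test. The 37 lists and the genotypes compared were chosen with earlier results of these data known. The named genes are all called genes, the 15 uncalled genes of smallest p (mean log2 CPM of at least 2, without predicted gene models such as Rik numbers), per list up to 4 of smallest p and 3 of highest level, and genes of the gate, of sex and of the pathway. A few list members such as Trac were not analysed here. Seed sites were searched in the 3′ UTRs of GENCODE vM21, to which 95.7% of symbols matched. DESeq2 1.42.0, limma 3.58.1 (voom), the 6 libraries alone, other scalings and filters, a Y-linked covariate and each library left out were alternatives. The pipeline was tested on simulated data with known fold changes. Total counts set the precision, and counting intervals (95%) and floors cover counting error only, since amplified reads are not independent molecules.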

Additional observations from a re-analysis of the deposited data

Results flagged for a closer look

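Cd2, Dok3 and Hvcn1 differed in what loss of miR-146a did with and without mutant Runx1, by the interaction term of the 12-library edgeR fit (the effect with mutant Runx1 minus the effect without, log2). The effect without mutant Runx1 is the difference by which these genes were called. The interaction was not refitted in the other settings. A031, a library of the double genotype, had 14 Mir146 counts. For Cd2 the interaction was -13.41 (adjusted p = 0.00202), with 0.198 ± 0.0391 CPM in the double genotype, 85.5 ± 8.86 in miR146aKO, 2.07 ± 1.62 in Runx1mut and 0.0475 ± 0.0822 in wildtype (SD, n = 3 each). For Dok3 it was -6.08 (adjusted p = 0.0257 by edgeR), with 25.9 ± 6.37, 83.6 ± 14.8, 69.4 ± 44.9 and 3.30 ± 1.20 CPM in the same order of genotypes. For Hvcn1 it was -4.07 (adjusted p = 0.0457 by edgeR), with 57.95 ± 21.9, 208 ± 59.3, 68.7 ± 9.53 and 14.6 ± 4.13 CPM in that order.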

How the results depend on the processing

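All 23 called genes kept their direction in each of the 25 other settings, but the number called did not hold. Against 23 genes (19 higher, 4 lower), a fit of the 6 libraries called 158 (126 and 32), DESeq2 977 (622 and 355), limma-voom 76 (70 and 6), no count filter 796 (544 and 252), and a stricter filter of 10 CPM in 3 libraries 40 (29 and 11). Robust quasi-likelihood called 32 (22 and 10), edgeR's newer quasi-likelihood method, an alternative added after seeing the data, 451 (355 and 96), and RLE scaling 24. Library totals as the only scaling called 41 (24 and 17), shifted the median of all genes to -0.17 and moved the share of calls that were higher to 58.5%, against 82.6%. The Y-linked covariate left 0 (0 and 0; 1209 with an unadjusted p under 0.05), as did A015 as the only wildtype library, also added after seeing the data (0 and 0; 851). Leaving out 1 of the 12 libraries gave 2 to 135 calls (2 to 113 higher, 0 to 22 lower): 135 without A047, 3 without A150, 2 without A151, 5 without A015, 5 without A040, 2 without A053, and 35 to 102 without a library of the other genotypes. The cause of these changes was not tested. No paired analysis was possible because the columns of the count table carry no replicate numbers. Among uncalled genes, leaving out 1 library gave log2 fold changes of -0.38 to 0.28 for Traf6, -0.37 to 0.17 for Irak1, -0.25 to 0.16 for Nfkb1 and -1.49 to 1.17 for Flt3. With A015 alone as wildtype, Traf6 was at 0.15, Irak1 at 0.41, Flt3 at 0.81, Nfkb1 at 0.076 and Mki67 at 0.41, and with the Y-linked covariate Pou2af1 was at -0.31. With that covariate the median of stem cell transcription factors was -3.24 and that of gate and stem cell surface genes -4.07.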
